A study of Mus musculus with 9 samples.

Results

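The transcripts described here are 10 immediate early genes that encode transcription factors, namely the Fos genes Fos, Fosb and Fosl2, the Jun genes Jun, Junb and Jund, the AP-1 related gene Atf3, and the zinc finger genes Egr1, Egr2 and Egr3. They were chosen by gene symbol, with earlier results of these data known, and all 10 were among the 54532 genes of the expression table. Each of the 10 passed the filter on low values. All 10 were lower in CD11c+MHCIIlo cells of leukemic spleen than in mature dendritic cells of healthy spleen. Fold changes on the log2(FPKM + 1) scale ran from -1.38 for Jund to -4.60 for Atf3.

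Immediate early genes are transcribed within minutes of a stimulus, without a need for new protein synthesis, and their short-lived mRNAs disappear soon after the stimulus ends. Fos proteins pair with Jun proteins to form AP-1, Atf3 joins the same leucine zipper network, and Egr proteins bind GC-rich sites. In dendritic cells (DCs), which present antigen to T cells, AP-1 factors are known to respond to Toll-like receptor, MAP kinase and calcium signals.

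RNA was sequenced from DCs sorted from mouse spleen in 9 samples, 3 in each of 3 groups. N-mDCs were mature conventional DCs of healthy mice, T-mDCs were the mature conventional DCs of mice with T cell acute lymphoblastic leukemia (T-ALL), and T-DCs were the CD11c+MHCIIlo cells of such mice, which the labels call immature DCs. Per the study's methods, the leukemia was made by retroviral expression of the Notch1 intracellular domain (ICN1, with GFP) in bone marrow cells, and GFP+ leukemia cells were then passed to C57BL/6J or C57B6.SJL recipients without irradiation, so these hosts kept their own hematopoietic cells. The mice were young adult females, red cells were lysed, and T-DCs were enriched on CD11c beads before sorting. The methods do not say whether mature DCs were enriched in the same way. The part of tissue handling and sorting in the values was not tested. The comparison asks how the transcriptome of T-DCs differs from that of mature DCs in the same disease and in health. No MHCIIlo DCs of healthy spleen were analysed here, so in T-DCs against N-mDCs the gate and the leukemia cannot be told apart. The labels do not say whether the samples of a group were separate mice, and the p-values measure only the spread between these samples.

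Values are FPKM, read fragments scaled by gene length and library size, so that levels of different genes can be compared. Reads on genes, recovered as whole numbers from the FPKM, ranged from 15360815 to 18440913 per sample, and the member with the fewest reads in any sample was Egr3, with 44 in T-DC sample 3. Markers of mature DCs (Ccr7, Fscn1, Cd83, Cd40 and Cd86) summed to between 1030 and 2200 FPKM in N-mDCs, between 1120 and 1700 in T-mDCs, and between 27.9 and 117 in T-DCs, with each of the 5 detected. Markers of conventional DCs, 7 genes, summed to between 500 and 588 FPKM in N-mDCs, 535 and 540 in T-mDCs and 158 and 598 in T-DCs. Of the 7, limma called 5 lower and 0 higher in T-DCs against N-mDCs, and 4 lower and 0 higher against T-mDCs. Flt3, Zbtb46, Xcr1 and Clec9a were called lower in both comparisons. Itgax and Sirpa, which had the highest means of the 7 in every group, were called in neither, so the sums mostly follow them. Hemoglobin genes took 0.0422%, 3.82% and 3.0% of reads in T-DC samples 1 to 3 and at most 0.405% elsewhere, and 7 erythroid markers summed to between 599 and 57700 FPKM in T-DCs, between 99.3 and 5360 in N-mDCs and between 14.2 and 178 in T-mDCs. Neutrophil markers, 8 genes, ranged from 8.59 to 4330 FPKM in T-DCs, 56.6 to 663 in N-mDCs and 3.63 to 15.6 in T-mDCs. The 9 monocyte and macrophage markers summed to between 2450 and 5030 FPKM in N-mDCs, 1520 and 4880 in T-DCs and 752 and 2040 in T-mDCs, and the 5 B lineage markers to between 207 and 283, 31.2 and 88.7, and 49.4 and 180.0. The 4 NK markers summed to between 33.5 and 102 FPKM in N-mDCs, 0.812 and 13.4 in T-DCs and 1.02 and 2.02 in T-mDCs, all 4 called lower in both leukemic groups, and the 4 plasmacytoid DC markers to between 186 and 430.0, 102 and 149, and 55.9 and 90.8, with 2 of 4 called lower in each. The part of these cells in the results was not tested. T-mDC samples 2 and 3 were closer to each other than any other pair, with a chi-square of 1.85 per gene against at least 8.11 for the other pairs within groups. They still differed by more than counting error and were kept as separate samples. In bulk RNA, fewer cells of a type and less RNA per cell cannot be told apart.

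The promoters of 4 members are shown here because each holds a different set of the motifs searched. Of the 10 members, 8 had RefSeq windows used here, which run from 250 bases before to 50 bases after a transcript start (build GRCm38.p6). Both strands were searched for the short cyclic AMP response element TGACG, its longer form TGACNTCA, the AP-1 site TGANTCA, the Egr site GCGNGGGCG, TATAAA and the CArG box bound by serum response factor, and TGACG can lie within TGACNTCA. Capitals mark the matches, positions count from the transcript start, and the lines give chr12:85473640-85473939 on the plus strand for Fos, chr7:19309996-19310295 on the minus strand for Fosb, chr4:95052173-95052472 on the minus strand for Jun and chr10:67537619-67537918 on the plus strand for Egr2.
Fos: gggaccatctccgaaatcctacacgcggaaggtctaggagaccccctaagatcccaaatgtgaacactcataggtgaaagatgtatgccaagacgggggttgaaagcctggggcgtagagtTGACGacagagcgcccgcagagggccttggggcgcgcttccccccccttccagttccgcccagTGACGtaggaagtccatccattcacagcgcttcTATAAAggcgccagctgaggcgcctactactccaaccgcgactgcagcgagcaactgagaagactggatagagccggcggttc
Fosb: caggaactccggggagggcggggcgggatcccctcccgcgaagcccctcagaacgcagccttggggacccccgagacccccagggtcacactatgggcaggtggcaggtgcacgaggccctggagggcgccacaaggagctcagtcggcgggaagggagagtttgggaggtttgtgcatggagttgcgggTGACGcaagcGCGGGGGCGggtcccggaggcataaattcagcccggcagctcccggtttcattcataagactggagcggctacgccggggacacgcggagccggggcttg
Jun: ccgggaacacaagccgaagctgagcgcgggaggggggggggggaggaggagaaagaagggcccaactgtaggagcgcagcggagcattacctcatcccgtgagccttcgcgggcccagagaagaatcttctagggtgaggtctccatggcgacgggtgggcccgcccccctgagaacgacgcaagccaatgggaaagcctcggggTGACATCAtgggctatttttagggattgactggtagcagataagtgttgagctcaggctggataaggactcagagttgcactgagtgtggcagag
Egr2: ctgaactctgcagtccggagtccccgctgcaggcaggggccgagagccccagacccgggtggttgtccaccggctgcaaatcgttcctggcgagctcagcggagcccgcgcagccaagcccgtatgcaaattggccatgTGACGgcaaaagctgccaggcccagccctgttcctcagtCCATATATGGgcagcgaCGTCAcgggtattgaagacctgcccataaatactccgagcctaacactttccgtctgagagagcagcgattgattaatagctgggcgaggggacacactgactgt

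TGACG stood in 7 of the 12 member windows, some of them overlapping windows of Egr2, and so in 5 of the 8 members. It stood in 20.8% of all 32851 windows used and 31.4% of the windows of tested genes. In Fos it lay at -129 and -66, in Fosb at -60, in Junb at -106, in Atf3 at -7, and in the Egr2 window shown at -111 and -55. The Jun window held TGACNTCA at -45, a motif present in 8.83% of all windows and 7.03% of those of tested genes. Among the 8 members searched, a CArG box was found in Egr2 alone, in 4 of its 5 windows. Bases outside the windows were not searched, so a gene without a match here may hold one elsewhere. It was found in 1.63% of all windows used and 1.24% of those of tested genes. Of the 4 Egr2 windows with a box, which belong to different starts of the same gene, 3 overlap and share the box shown. The other one holds a different box. The Egr site stood in 2 of the 12 member windows, at -50 in Fosb and at -79 in Fosl2, against 5.55% of all windows and 10.2% of the windows of tested genes. TATAAA stood in 2 of the 12 member windows, at -33 in Fos and at 1 in Junb, against 13.6% of all windows and 7.14% of those of tested genes. Positions count from RefSeq starts, and that of Junb lies upstream of the gene's start in the expression table. The Jund window, 70697489 to 70697788, ends before the start of that gene in the expression table, 70698949. The AP-1 letters TGANTCA were in none of the member windows and in 7.81% of all windows and 5.02% of those of tested genes. No other form of the AP-1 site was counted as one. These matches describe letters in a window and are not evidence of binding.

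All 10 genes have the same start and end in the expression table and in GENCODE release 21 of the mouse annotation. Most are short genes, but the transcripts of Fosl2 and Atf3 span 22042 and 13045 bases. Jun, Junb and Jund have 1 exon each, Egr1, Egr2 and Egr3 have 2, and Fos, Fosb, Fosl2 and Atf3 have 4, whereas 20.1% of the 10707 tested protein-coding genes have 4 or fewer. The median transcript spans 4741 bases in the members and 20929 bases in those genes. The pentamer ATTTA, the core of AU-rich elements that shorten mRNA life, occurs at a median of 2.51 per kilobase of 3′ UTR in the members and 1.26 in those genes, and TATTTAT occurs in 6 of 10 members against 27.6%. Fos holds 4 ATTTA pentamers in a 3′ UTR of 815 bases.

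Fos, the founding partner of Jun in AP-1 (chromosome 12, 85473890 to 85477273, plus strand), read 951, 1469 and 1253 FPKM in N-mDC samples 1 to 3. Its level was 738, 244 and 180.4 FPKM in the T-DC samples and 437, 691 and 688 FPKM in the T-mDC samples. Every sample of leukemic spleen lay below every N-mDC sample, and T-DC sample 1 lay above all 3 T-mDC samples while the other two lay below them. The change in T-DCs against N-mDCs was -1.91 on the log2(FPKM + 1) scale (SE 0.49, limma adjusted p = 0.0316). This was the least secure call of the 10, with the adjusted p between 0.000465 and 0.229 over 21 other ways of processing or leaving out a sample. When 1 sample was left out, the call held without T-DC sample 1 or T-mDC sample 1, and without any of the other 7 the limma adjusted p lay between 0.0538 and 0.106. Against T-mDCs the difference of -0.89 did not pass the test (SE 0.49, limma adjusted p = 0.259).

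Fosb, a Fos protein that activates through a C-terminal domain in its full-length form (chromosome 7, 19302696 to 19310051, minus strand), read 435, 536 and 600.3 FPKM in N-mDCs. In T-DCs it read 39.5, 36.5 and 13.9 FPKM, and in T-mDCs 48.9, 175 and 174 FPKM. The 3 groups did not overlap and stood in the order N-mDCs, T-mDCs, T-DCs. Its mean fell from 524 ± 83.3 FPKM to 30.0 ± 14.0 FPKM in T-DCs (SD, n = 3), a log2 fold change of -4.20 (SE 0.55, limma adjusted p = 0.00228). T-DCs were also lower than T-mDCs, by a log2 fold change of -2.03 (SE 0.55, limma adjusted p = 0.041), although T-mDC sample 1 was near the highest T-DC sample. That second call did not hold when any 1 of N-mDC samples 1 to 3, T-mDC samples 2 or 3, or T-DC samples 2 or 3 was left out (limma adjusted p between 0.0630 and 0.161).

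Fosl2, also called Fra-2, a Fos protein without the strong activation domain of Fos (chromosome 5, 32135801 to 32157842, plus strand), read 36.8, 37.96 and 69.3 FPKM in N-mDCs. Its level was 10.2, 6.28 and 3.40 FPKM in T-DCs and 6.23, 8.28 and 7.76 FPKM in T-mDCs. Both leukemic groups were low and overlapped each other, and neither reached the N-mDC range. T-DCs differed from N-mDCs by -2.73 (SE 0.36, limma adjusted p = 0.00255) and T-mDCs by -2.49 (SE 0.36, limma adjusted p = 0.0158). Between T-DCs and T-mDCs the log2 difference was -0.24, with a 95% interval from -1.07 to 0.59.

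**Figure D1:**
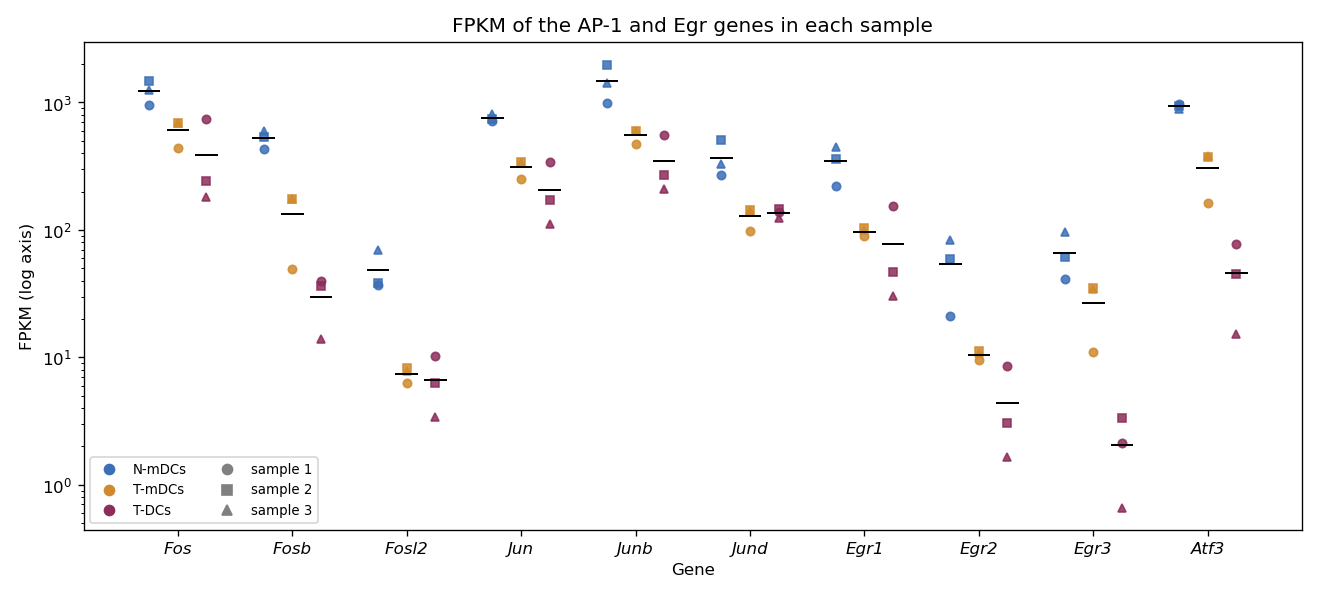
FPKM of each of the 10 genes in every sample, on a log axis, with N-mDCs in blue, T-mDCs in orange and T-DCs in purple, shapes for sample numbers and a bar at each group mean. The N-mDC samples of every gene lie above all samples of leukemic spleen, and T-DC sample 1 (purple circles) lies above the T-mDC samples for Fos, Fosl2, Jun and Egr1.

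Jun, the canonical AP-1 subunit and target of the JNK kinases (chromosome 4, 95049034 to 95052222, minus strand), read 717, 744 and 807 FPKM in N-mDCs. It read 341, 171 and 111 FPKM in T-DCs and 249.8, 339 and 338 FPKM in T-mDCs. T-DC sample 1 was just above the highest T-mDC sample, and all leukemic samples were below the lowest N-mDC sample. The log2 fold change of T-DCs against N-mDCs was -2.01 (SE 0.37, limma adjusted p = 0.00917). The antisense gene Junos, which overlaps Jun by 689 bases, did not exceed 0.658 FPKM in any sample.

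Junb, which can oppose Jun at AP-1 sites and is needed for DC and T helper programs (chromosome 8, 84974484 to 84978718, minus strand), was the member with the highest mean in N-mDCs, 1467 ± 496 FPKM (SD, n = 3), from samples at 996, 1984 and 1421 FPKM. It read 559, 270.3 and 208.5 FPKM in T-DCs and 468, 601 and 597 FPKM in T-mDCs. The leukemic groups overlapped each other and lay below N-mDCs. The log2 fold change of T-DCs from N-mDCs was -2.16 (SE 0.39, limma adjusted p = 0.00885). Junb overlaps 351 bases of Prdx2, a peroxidase gene abundant in red cells, on the opposite strand. Prdx2 read 579 and 470.0 FPKM in T-DC samples 2 and 3 and between 26.9 and 56.7 FPKM in the other 7 samples. Whether the counting used the strand is not given in the sources used here, so reads of the shared bases are uncertain, and their part in the Junb values was not tested.

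Jund, the Jun gene with the steadiest expression in most resting cells (chromosome 8, 70698949 to 70700616, plus strand), read 267.5, 507 and 327 FPKM in N-mDCs. It read 139, 146 and 123 FPKM in T-DCs and 98.2, 144 and 141 FPKM in T-mDCs. The leukemic groups overlapped, with T-mDC sample 1 below the T-DC range, and the highest sample was 1.19 times the lowest in T-DCs and 1.47 times in T-mDCs. Jund fell by 1.38 on the log2 scale in T-DCs against N-mDCs (SE 0.27, limma adjusted p = 0.012) and by 1.48 in T-mDCs (SE 0.27, limma adjusted p = 0.0316). The log2 difference between T-DCs and T-mDCs was 0.11, with a 95% interval from -0.51 to 0.72, and its sign turned to -0.22 after rescaling to TPM and to -0.19 after quantile normalization.

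Atf3, a stress-induced repressor of inflammatory cytokine genes in myeloid cells (chromosome 1, 191170296 to 191218039, minus strand), read 966, 945 and 895 FPKM in N-mDCs, the tightest set of values of any member in that group. It read 77.1, 44.7 and 15.2 FPKM in T-DCs and 161, 370.4 and 382 FPKM in T-mDCs. The 3 groups did not overlap. Its decrease in T-DCs against N-mDCs was the largest of the 10, with a log2 fold change of -4.60 (SE 0.55, limma adjusted p = 0.00173), or 24.2-fold. Against T-mDCs the log2 fold change was -2.88 (SE 0.55, limma adjusted p = 0.0119), and the adjusted p became 0.061 without T-mDC sample 2 and 0.0616 without sample 3.

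Egr1, the most widely induced Egr factor (chromosome 18, 34859823 to 34864984, plus strand), read 221, 363 and 449 FPKM in N-mDCs. In T-DCs it read 155, 46.3 and 30.5 FPKM and in T-mDCs 89.0, 103 and 99.3 FPKM. T-DC sample 1 stood above all T-mDC samples, and the other two stood below them. The log2 fold change of T-DCs against N-mDCs was -2.43 (SE 0.53, limma adjusted p = 0.0188). The call did not hold without N-mDC sample 2 (limma adjusted p = 0.0568), N-mDC sample 3 (0.0691), T-DC sample 2 (0.0687) or T-DC sample 3 (0.0521).

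Egr2, known for its roles in myelination, T cell tolerance and myeloid differentiation (chromosome 10, 67535475 to 67542188, plus strand), read 21.2, 59.1 and 83.0 FPKM in N-mDCs. It read 8.53, 3.06 and 1.65 FPKM in T-DCs and 9.51, 11.1 and 10.8 FPKM in T-mDCs. No group overlapped another, although T-DC sample 1 was close to T-mDC sample 1. T-DCs differed from N-mDCs by -3.36 (SE 0.56, limma adjusted p = 0.00629). Their difference from T-mDCs was -1.29, with an unadjusted 95% interval from -2.56 to -0.03 and a limma adjusted p of 0.159.

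Egr3, which acts with Egr2 in lymphocytes (chromosome 14, 70077203 to 70082614, plus strand), read 41.2, 61.3 and 95.7 FPKM in N-mDCs. It read 2.14, 3.34 and 0.658 FPKM in T-DCs and 10.9, 34.9 and 34.5 FPKM in T-mDCs. The groups did not overlap, and T-DC sample 1 was not raised as it was for Egr1. The change in T-DCs was -4.49 against N-mDCs (SE 0.53, limma adjusted p = 0.00164). Against T-mDCs it was -3.13 (SE 0.53, limma adjusted p = 0.00713), and this call held in 20 of 21 alternatives.

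**Figure D2:**
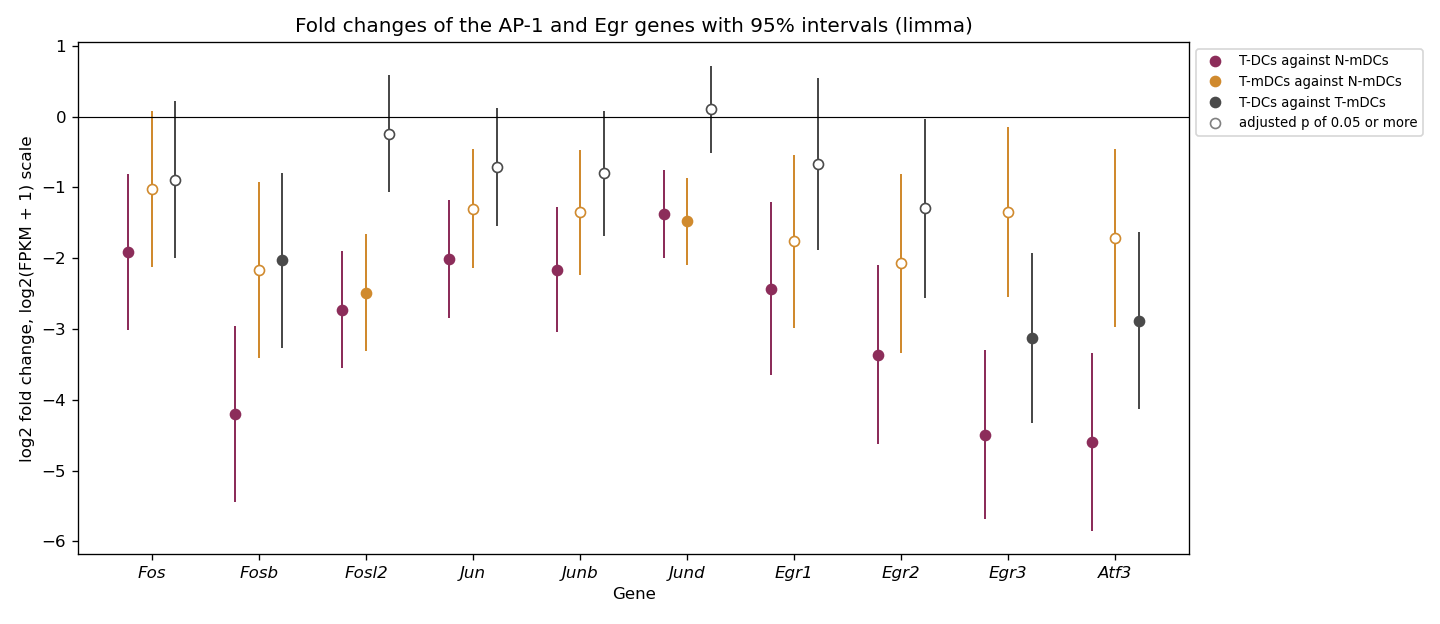
Log2 fold changes of the 10 genes with 95% intervals from limma, for T-DCs against N-mDCs (purple), T-mDCs against N-mDCs (orange) and T-DCs against T-mDCs (grey), with open points where the adjusted p was 0.05 or more. All 10 purple points are filled and below 0, while filled grey points are those of Fosb, Egr3 and Atf3 and filled orange points those of Fosl2 and Jund.

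Over the 10 genes, T-DCs against N-mDCs gave 10 lower calls, where 10.3% of the 12746 tested genes were called lower. The members were chosen with earlier results of these data known, so these shares are a description, not a test of the set. The samples of the 2 groups did not overlap for any of the 10, as for 16.4% of tested genes in that direction. The members' median log2 fold change was -2.58, beside 0.05 over all tested genes. Atf3, Egr3, Fosb and Fosl2 were called under all 21 alternatives, Egr2, Jun, Junb and Jund under 20, Egr1 under 15 and Fos under 9. With the mean erythroid marker level as a covariate, 4 of the 10 were called. T-DC sample 1, with the least hemoglobin RNA of the 3 T-DC samples, had the highest level in that group for 8 members, the exceptions being Jund and Egr3. The part of the erythroid RNA in the differences among T-DC samples was not tested.

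T-mDCs and N-mDCs were both sorted as mature DCs, of leukemic and of healthy spleen. Their contents differed, since limma called all 4 NK markers lower in T-mDCs (Gzma at 0.841 against 54.3 FPKM, limma adjusted p = 0.0167), with the plasmacytoid DC markers Siglech (limma adjusted p = 0.0484) and Bst2 (limma adjusted p = 0.0201). The 9 monocyte and macrophage markers all had negative log2 fold changes, with a median of -1.58. None was called, and 8 had every T-mDC sample below every N-mDC sample. The medians were -1.43 for the 5 B lineage and -2.12 for the 8 neutrophil markers, with none called. They were 0.43 for the 7 conventional DC and 0.23 for the 5 mature DC markers. The part of these differences in contents in the values of the members was not tested. All 10 members had every T-mDC sample below every N-mDC sample, against 15.7% of tested genes. The limma test called Fosl2 and Jund lower and did not call the other 8, where 1.52% of tested genes were called lower. The 8 had log2 fold changes from -1.02 for Fos (SE 0.49, limma adjusted p = 0.333) to -2.17 for Fosb (SE 0.55, limma adjusted p = 0.0888). The median was -1.60, beside 0.03 over all tested genes. The number called was 7 without T-DC sample 1, which enters only through the shared estimate of spread, 3 without N-mDC sample 1, 1 (Fosl2) without T-DC sample 2 or T-mDC sample 1, and 0 without N-mDC sample 2 or 3 or T-mDC sample 2 or 3. With only these 2 groups in the fit it was 6.

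T-DCs against T-mDCs compares the MHCIIlo and mature gates within leukemic spleen. Fosb, Egr3 and Atf3 were called lower in T-DCs, where 8.79% of tested genes were called lower. Those 3 and Egr2 had no overlap between the groups, against 18.1% of tested genes in that direction. For the remaining 6 genes the groups overlapped, and the log2 differences ran from -0.89 for Fos to 0.11 for Jund. The members' median was -0.84 and that of all tested genes 0.07. Without T-DC sample 1 the number called was 8, with Fos at -1.49 (limma adjusted p = 0.00603) and Egr1 at -1.34 (limma adjusted p = 0.0128), and Fosl2 and Jund not called. It was 1 without T-mDC sample 2 or without T-mDC sample 3. With the erythroid covariate no member was called. All 7 erythroid markers were called higher in T-DCs than in T-mDCs, beside 5.44% of tested genes, with a median log2 difference of 7.32. The covariate thus largely follows these groups, and the fit cannot tell erythroid RNA from the group.

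The 3 comparisons share samples, so their values are given side by side and no overlap between them was computed. Mean levels stood in the order N-mDCs, T-mDCs, T-DCs for 9 of 10 members, all but Jund, and for 16.6% of tested genes. The same order held sample by sample, without any overlap, for Fosb, Egr2, Egr3 and Atf3 and for 2.13% of tested genes. For Fos, Fosl2, Jun, Junb, Jund and Egr1 the leukemic groups overlapped, and limma did not call them apart. The smallest differences among these were 0.11 for Jund and -0.24 for Fosl2, both small beside their intervals.

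Because FPKM is per length, the make-up of each family can be read as shares of its summed FPKM. The summed FPKM of the Jun genes was 2590 ± 628 in N-mDCs, 992 ± 153 in T-mDCs and 689.5 ± 311 in T-DCs (SD, n = 3). Junb was the largest share in every sample, from 46.0% to 61.3%. Jund took 13.5%, 15.7% and 12.8% in N-mDCs, between 12% and 13.3% in T-mDCs, and 13.4%, 24.9% and 27.8% in T-DCs. The higher Jund share was that of T-DC samples 2 and 3, and T-DC sample 1 lay within the N-mDC range. For the Fos genes, counted with Fosl1, it was 1798 ± 329 in N-mDCs, 746 ± 220 in T-mDCs and 424.5 ± 318 in T-DCs. Fos made up between 65.1% and 71.9% of this sum in N-mDCs and between 84.7% and 93.7% in T-DCs, and Fosb made up between 26.2% and 31.2% in N-mDCs and between 5.02% and 12.7% in T-DCs. In T-mDCs Fosb made up 9.93%, 20% and 20%, with sample 1 inside the T-DC range and samples 2 and 3 between the T-DC and N-mDC ranges. Fosl1 did not exceed 0.381% in any sample. These shares were not tested.

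**Figure D3:**
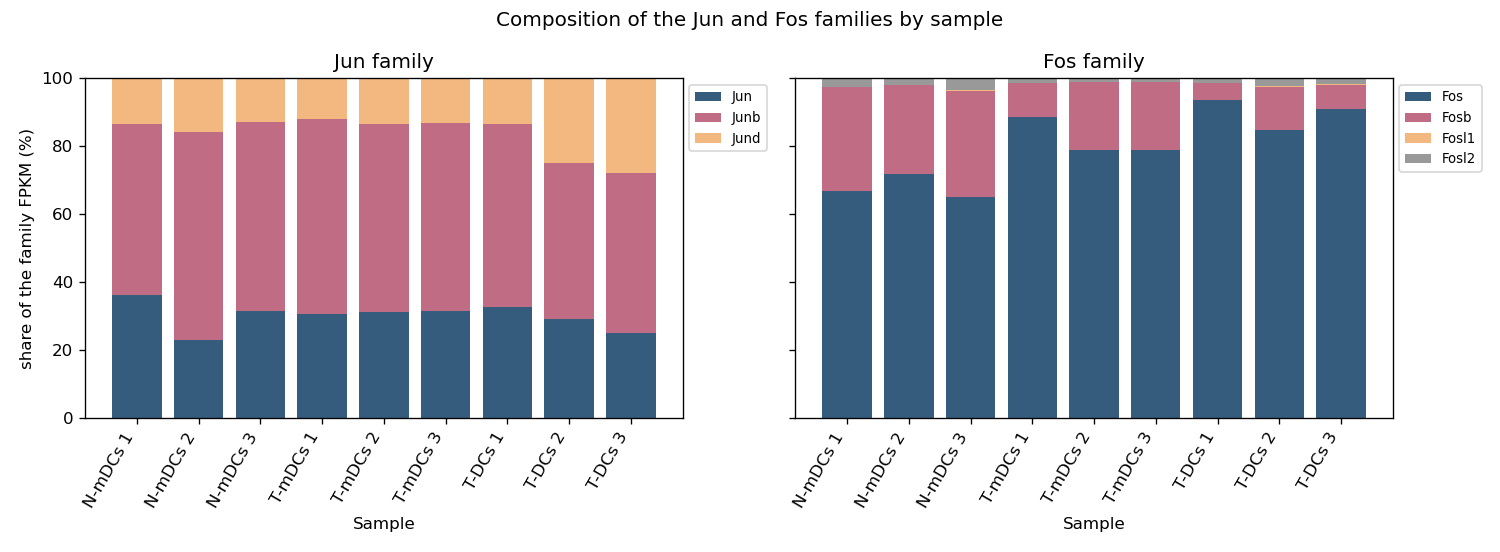
Share of each gene in the summed FPKM of the Jun genes (left) and the Fos genes (right), in percent, 1 bar per sample. Jund takes 24.9% and 27.8% in T-DC samples 2 and 3 and at most 15.7% elsewhere, and Fosb takes at least 26.2% in N-mDCs and at most 20% in the other samples.

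The members did not share 1 profile over the 9 samples. Likeness was measured as the root mean square difference between log2(FPKM + 1) profiles, each centred on its own mean. Fos, Jun and Junb were the closest members to each other, at 0.24 for each pair, and Egr1 was 0.34 from Junb. Jund was farthest from the rest, at 0.52 from its nearest member Junb and 1.58 from Atf3 and from Egr3. Atf3 and Fosb were 0.46 apart.

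Among genes outside the 10, Zfp36, an mRNA decay factor that is itself immediate early, was nearest to Fos at 0.17, ahead of Gpr65 at 0.24. Gbp8, a guanylate binding protein gene, was nearest to Jun at 0.09, followed by Pim3, a kinase gene, at 0.20. Junb had Pim3 and Gpr65 at 0.21. Cd7 and Rasgef1b were nearest to Fosb at 0.41 and 0.44, and Hspa1a, an inducible heat shock protein gene, and Clec7a, the beta-glucan receptor Dectin-1, were nearest to Fosl2 at 0.20 and 0.30. Jund had Gm26982 and Trp53i13 at 0.22 and 0.23, and 493 tested genes were closer to it than its nearest member. The nearest outside genes to Egr1 were Gbp8 and Gm5547, both at 0.40, to Egr2 Nfkbid and Hspa1a at 0.49 and 0.52, and to Egr3 Rrad and Adgrg5 at 0.46 and 0.51. Cd83, a surface marker of mature DCs, was nearest to Atf3 at 0.26, before the lectin gene Cd209a at 0.37. These distances describe 9 samples in 3 groups and carry no test.

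A list of other immediate early genes was examined in the same fit. This list and those below were also chosen with earlier results of these data known. Of 31 such genes, all tested, limma called 12 lower and none higher in T-DCs against N-mDCs, where 10.3% of tested genes were called lower and 6.1% higher, with a median log2 fold change of -0.98. At an unadjusted p under 0.05, 17 were lower and 0 higher, and limma voom on the recovered reads gave 13 and 0. Without T-DC sample 1 the number lower was 24. The largest decreases were in the orphan nuclear receptor genes Nr4a3 (-6.34, SE 0.48, limma adjusted p = 0.000456) and Nr4a2 (-4.82, SE 0.42, limma adjusted p = 0.000614), followed by Csrnp1 at -2.79 and Gadd45b, a stress response gene, at -2.56. Dusp1, the MAP kinase phosphatase that ends such signals, was at -0.61 (limma adjusted p = 0.298), Ier2 at -1.02 (0.121) and Myc at -0.36 (0.504), and these 3 were chosen after their values were seen.

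Against T-mDCs, 5 of the 31 were lower in T-DCs and none higher, where 8.79% of tested genes were called lower and 5.44% higher, with a median of 0.04. They were Nr4a3 at -4.22, Gadd45b at -2.94, Nr4a2 at -2.21, Csrnp1 at -1.53 and Arc at -1.24, the last named after its value was seen. At an unadjusted p under 0.05, 8 were lower and 1 higher, and voom gave 5 and 0. The number lower was 0 with the erythroid covariate and 11 without T-DC sample 1. Leaving out T-mDC sample 2 or sample 3 gave 2. In T-mDCs against N-mDCs, 4 were lower and none higher, where 1.52% of tested genes were called lower and 0.69% higher, with a median of -0.99. They were Nr4a2 at -2.61, the antiproliferative gene Btg2 at -2.37, Nr4a1 at -2.21 and the clock gene Per1 at -1.38, the last likewise named after its value was seen. At an unadjusted p under 0.05, 16 were lower and 0 higher, and voom gave 4 and 0. The number lower was 13 without T-DC sample 1, 2 without N-mDC sample 2, 1 without N-mDC sample 3 and 0 without T-mDC sample 2 or 3. Mean Nr4a3 was 139, 31.2 and 0.707 FPKM in N-mDCs, T-mDCs and T-DCs. Mean Nr4a1 was 1304, 288 and 585 FPKM, and its T-DCs overlapped T-mDCs, with a log2 difference of 0.85 (SE 0.43, limma adjusted p = 0.228).

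Partners and cofactors of AP-1 and Egr proteins mostly did not pass the test. Of 15 tested of 16 listed, Maff (-3.45, SE 0.29, limma adjusted p = 0.00054), a small Maf protein, and Batf3 (-2.41, SE 0.50, limma adjusted p = 0.0147), required for cross-presenting DCs, fell in T-DCs against N-mDCs, and Mafg rose (0.83, SE 0.18, limma adjusted p = 0.0177). These 2 lower calls and 1 higher call of 15 are near the shares of all tested genes, 10.3% and 6.1%. The list's median was -0.48. The same 3 genes were called against T-mDCs, at -2.19, -2.50 and 1.14, beside 8.79% of tested genes lower and 5.44% higher, with a list median of 0.15. In T-mDCs against N-mDCs limma and voom called none, 5 were lower and 1 higher at an unadjusted p under 0.05, and the median was -0.30. Batf3 had means of 66.2, 70.0 and 13.6 FPKM in N-mDCs, T-mDCs and T-DCs, and its log2 difference between T-mDCs and N-mDCs was 0.09 (SE 0.50, limma adjusted p = 0.95).

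Regulators upstream of these genes, 20 genes of the SRF, MAP kinase and CREB pathways, gave calls at close to the share of all tested genes in T-DCs against N-mDCs, with 2 of 20 lower beside 10.3%. Crem, whose short product ICER represses cyclic AMP targets, fell in T-DCs against N-mDCs at -2.71 (SE 0.25, limma adjusted p = 0.000696), and Srf, encoding serum response factor, was lower at -0.71 (SE 0.16, limma adjusted p = 0.0203). The list's median was -0.10. Rps6ka1, a ribosomal S6 kinase gene, was higher in T-DCs than in T-mDCs at 0.71 (limma adjusted p = 0.0223), the only higher call of the 20, beside 5.44% of tested genes. Crem was lower in T-mDCs than in N-mDCs at -2.79 (limma adjusted p = 0.00273), the only lower call of the 20, beside 1.52% of tested genes. The list medians of these comparisons were -0.05 and -0.07.

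Heat shock genes, which answer protein damage and often rise with immediate early genes under stress, were taken as a further list of 12, with 11 tested. Hspa1a fell in T-DCs against N-mDCs at -2.86 (SE 0.33, limma adjusted p = 0.00158) and in T-mDCs against N-mDCs at -2.53 (SE 0.33, limma adjusted p = 0.0118). Bag3, a cochaperone gene, was higher in T-DCs than in N-mDCs at 1.22 (SE 0.30, limma adjusted p = 0.0287). These were the only calls of the 11 in those comparisons, beside 10.3% of tested genes lower and 6.1% higher in T-DCs and 1.52% lower in T-mDCs. The near-identical copy Hspa1b was at -0.44 in T-DCs (limma adjusted p = 0.444), and because such copies share reads, the values of both are uncertain. Against T-mDCs limma and voom called none of the 11, and 2 were higher and 0 lower at an unadjusted p under 0.05. The list's medians were 0.20, 0.13 and 0.14 for T-DCs against N-mDCs, T-mDCs against N-mDCs and T-DCs against T-mDCs.

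**Figure D4:**
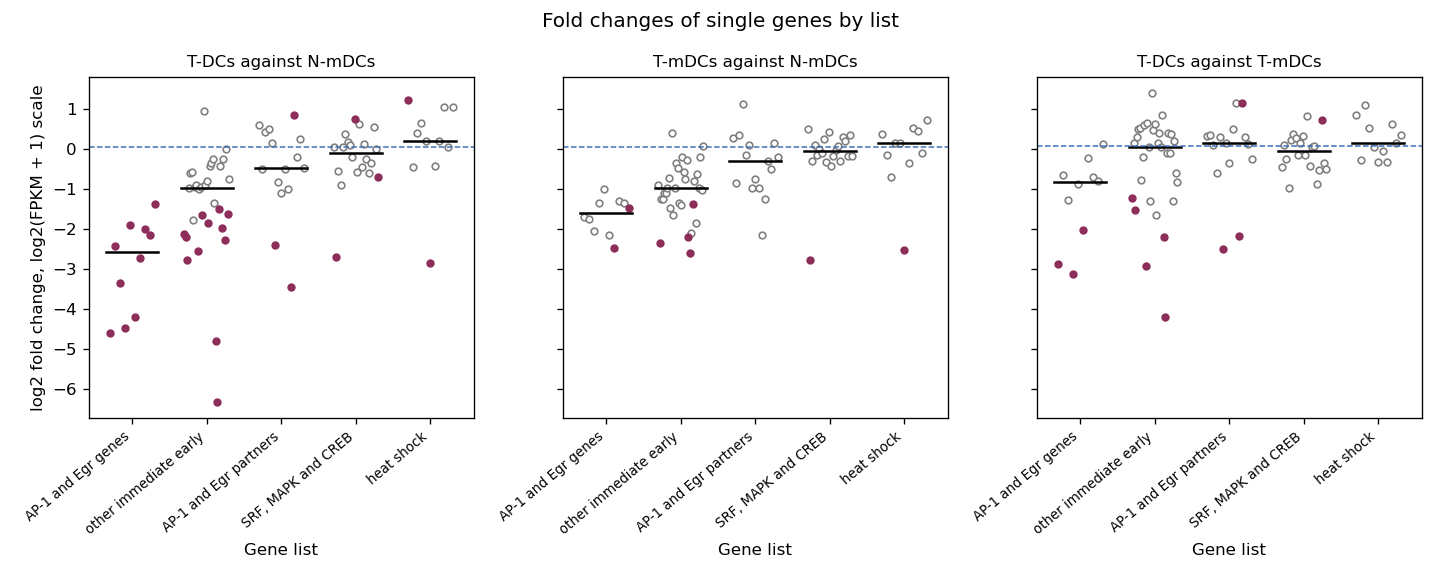
Log2 fold changes of single genes on the log2(FPKM + 1) scale, by gene list, in the 3 comparisons, with filled points for genes at a limma adjusted p under 0.05, black bars at list medians and a dashed line at the median of all tested genes. The medians of the 10 AP-1 and Egr genes are -2.58, -1.60 and -0.84 from left to right, and those of the heat shock genes are 0.20, 0.13 and 0.14.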

How the data were processed

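Gene FPKM values of 9 bulk RNA samples (3 N-mDCs, 3 T-DCs, 3 T-mDCs) were used as deposited by the authors, normalized by gene length and a library size per sample. The build is mm10 per the submitters' processing notes. The aligner, counter and strand setting are not given in the sources used here. The samples' columns were matched to the labels by library name. A gene was kept when 3 or more samples reached an FPKM of 1 (12746 genes), and log2(FPKM + 1) was fitted over all 3 groups with limma 3.58.1 (R 4.3.3), with a variance trend and Benjamini-Hochberg adjustment over all tested genes. A call is an adjusted p under 0.05. Fold changes are on the log2(FPKM + 1) scale, which understates changes of low genes. Whole reads were recovered from FPKM times gene length for a limma voom alternative, and no value lay farther than 5.59e-05 of a read from a whole number. The self-test was run on simulated data. Named genes were the 10 members, up to 4 called genes in each direction per list and T-DC comparison, up to 3 for T-mDCs against N-mDCs, and the 2 nearest genes by profile. The members and lists were chosen with earlier results of these data known. Promoter windows came from RefSeq, exons and UTRs from GENCODE. Alternatives comprised other scalings, filters, pseudocounts, a replicate block, an erythroid covariate, and leaving out each sample. Python 3.11.15, pandas 2.3.3 and numpy 2.4.6 were used. A single gene that the naming rule selects is not reported here.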

Additional observations from a re-analysis of the deposited data

How the results depend on the processing

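Depth set few limits, since the members had at least 44 reads in every sample, but 3 samples per group limit the precision, and T-DC sample 1 differed from the other T-DC samples. Each of the 10 members was refitted under 21 alternatives per comparison. Of 210 values, T-DCs against N-mDCs kept 188 on their side of the threshold and 22 lost the call, T-DCs against T-mDCs kept 178, lost 18, gained 5 and changed sign in 9, and T-mDCs against N-mDCs kept 180, lost 19 and gained 11. The cause of these changes was not tested.

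The 9 changes of sign were all in T-DCs against T-mDCs, for members not called there. Jund, at 0.11, was -0.22 after rescaling to TPM, -0.19 after quantile normalization, -0.11 with the erythroid covariate and between -0.07 (without T-mDC sample 1) and 0.20 when 1 sample was left out. Fosl2, at -0.24, lay between -0.57 and 0.11 (without T-DC sample 3) when 1 sample was left out. With the erythroid covariate Fos was 0.38, Fosl2 0.60, Jun 0.36 and Egr1 0.61. Rescaling to TPM shifted the median log2 fold change of all tested genes to -0.04 in T-DCs against N-mDCs, -0.23 in T-DCs against T-mDCs and 0.23 in T-mDCs against N-mDCs.

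For T-DCs against N-mDCs, 4 members were called lower with the erythroid covariate, as were 11 genes of the 4 pathway lists, and 0 list genes were called higher with that covariate, after TPM or with only the groups compared. Leaving out 1 sample gave 8 to 10 members lower, 8 to 24 of the other immediate early genes, 11 to 35 list genes lower and 0 to 9 higher. For T-DCs against T-mDCs, 1 member was called lower when T-mDC samples 2 and 3 were averaged into 1 or with only the groups compared. With the covariate, which largely follows these groups, 0 members, 0 other immediate early genes, 0 list genes lower and 0 higher were called. The average of T-mDC samples 2 and 3 gave 2 other immediate early genes and 3 list genes lower. Quantile normalization gave 8 and 12. List genes called higher numbered 1 after TPM, quantile normalization or averaging. Leaving out 1 sample gave 1 to 8 members, 2 to 11 other immediate early genes with 0 to 1 higher, 3 to 20 list genes lower and 1 to 5 higher. For T-mDCs against N-mDCs, 0 members were called after TPM or averaging, 1 without a filter or with a pseudocount of 0.1, and 6 with only the groups compared. Other immediate early genes called numbered 1 after TPM, 0 after averaging and 14 with only the groups compared, and list genes 2, 1 and 18, with 1 higher in the last. Leaving out 1 sample gave 0 to 7 members, 0 to 13 other immediate early genes and 1 to 17 list genes.

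Correlations of deviations from the group means lay between -0.47 and 0.27 for same-numbered samples and between -0.36 and 0.43 for others. Only T-DCs and T-mDCs could share a mouse. Between these groups the correlations were -0.07, -0.12 and 0.02 for same-numbered samples and between -0.17 and 0.16 for others. These ranges are alike, so they cannot decide whether same-numbered samples were paired, and the labels do not say. With the replicate block, 0 members and 2 other immediate early genes were called in T-mDCs against N-mDCs, and 1 list gene was called higher in T-DCs against T-mDCs.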
